A study of Mus musculus with 6 samples.

Results

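The report concerns 10 genes that mark the fibroblasts of the meninges and of tissue stroma: Slc47a1, Slc22a6, Slc6a13, Aldh1a2, Ptgds, Foxc1, Foxc2, Tbx18, Tcf21 and Islr. The rule picks them by gene symbol, although the list was drawn up with earlier results of these data known, and they are 10 of the 18193 genes that a probe set of 1 symbol represents. In the platform annotation 15 probe sets carried 1 of these symbols alone, out of 45037 probe sets other than controls. Of the genes, 5 have a lone probe set and 5 have 2 each, and the probe set with the highest mean over all arrays stood for its gene. All 10 passed the filter on dim probe sets, as did 14 of the 15 probe sets.

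The study compared choroid plexus epithelium from whole brain of B10.PL wild type (WT) mice with that of B10.PL RAG-/- mice, which lack mature T and B cells. Total RNA from 6 preparations was measured on 1 oligonucleotide array each, 3 described as WT and 3 as RAG-/-. The labels give neither the age nor the sex of the animals, nor which of the 2 RAG genes was disrupted, nor whether a preparation came from 1 animal or a pool, so every p-value rests on a spread between arrays that may be technical. A code in the titles joins 1 array of each genotype, which gives 3 pairs, and the replicate number of an array is also that of its pair. In pair 1 the description says that the samples were swapped and the title gives the opposite genotype, so each difference is given by description first and by title where that reading alters it.

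The choroid plexus is a folded sheet of secretory epithelium around a core of stroma, with leaky capillaries and fibroblasts that are continuous with the leptomeninges at the base of each fold. The meninges consist of the dura, the arachnoid and the pia, and their fibroblasts form the collagen sheets, carry solute transporters of the arachnoid barrier and, in the embryo, make the retinoic acid that guides growth of the cortex beneath. Brain tissue itself holds fibroblasts mainly along its vessels, and several of these genes are also made by other cells, as Ptgds is. In bulk tissue fewer cells of a type and less RNA per cell cannot be told apart.

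As a check of the tissue, 18 measured markers of choroid plexus epithelium lay at a median of the 99.0 percentile of all probe sets by mean level. Markers of other brain cells were bright too, at a median percentile of 94.3 for astrocytes, 89.5 for neurons and 88.3 for oligodendrocytes. The check therefore does not show that the preparations held choroid plexus alone. RAG-/- replicate 2 stood apart: its correlation with each other array, taken across probe sets, was between 0.853 and 0.924, while the other 5 arrays correlated at 0.917 to 0.969 with each other. Probe sets are not independent, so these are descriptions. Rag1, an enzyme of antigen receptor assembly, was dim, at the 27.1 percentile. On the log2 scale Rag1 was 6.54, 4.16 and 4.35 in WT replicates 1 to 3 and 4.60, 6.92 and 6.31 in RAG-/- replicates 1 to 3, so the arrays labelled RAG-/- were not lower (exact permutation p = 0.3). Whether the Rag1 probe set falls inside the deleted part cannot be told from the labels, so it does not check them. By title the Rag1 groups did not overlap, with the arrays titled RAG higher by 2.22 (exact permutation p = 0.1, the smallest that 3 against 3 arrays allow). Rag2, the other RAG gene, was as dim, at the 26.2 percentile. RAG-/- minus WT was 0.05 for Rag2 by description and -0.68 by title (exact permutation p = 0.6 by title). Genotypes below are therefore those of the labels, not of a measured loss. Xist, which is transcribed from the inactive X chromosome of females, was between 12.20 and 13.19 in 4 arrays but 9.04 in RAG-/- replicate 1 and 7.43 in RAG-/- replicate 3, and the Y-linked Eif2s3y was 9.47 and 9.76 in those arrays and at most 5.76 elsewhere. Both of those arrays are RAG-/- by description, so in that reading the sex markers are not balanced between the groups. By title RAG-/- replicate 1 counts as WT. The part of sex in the results was not tested.

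Upstream sequences are shown for Aldh1a2 and Tbx18, the members with the largest mean differences by description, and for Tcf21, the member whose values ran apart from the others. Each is the 250 bases before the RefSeq transcription start in GRCm38.p6, read 5′ to 3′ on the strand of the gene. Capitals mark the letters CANNTG, the E-box core that basic helix-loop-helix factors such as Tcf21 bind.

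Aldh1a2, chr9:71215539-71215788, plus strand: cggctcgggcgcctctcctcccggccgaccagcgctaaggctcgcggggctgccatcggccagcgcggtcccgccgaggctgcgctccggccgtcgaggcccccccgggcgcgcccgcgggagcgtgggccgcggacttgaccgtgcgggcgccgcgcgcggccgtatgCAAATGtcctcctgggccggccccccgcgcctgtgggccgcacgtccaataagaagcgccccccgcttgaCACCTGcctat

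Tbx18, chr9:87731261-87731510, minus strand: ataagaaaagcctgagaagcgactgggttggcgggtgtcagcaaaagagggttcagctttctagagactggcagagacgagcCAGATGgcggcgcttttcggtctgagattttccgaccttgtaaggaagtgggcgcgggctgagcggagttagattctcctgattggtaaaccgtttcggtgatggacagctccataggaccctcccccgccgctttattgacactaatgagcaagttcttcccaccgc

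Tcf21, chr10:22820144-22820393, minus strand: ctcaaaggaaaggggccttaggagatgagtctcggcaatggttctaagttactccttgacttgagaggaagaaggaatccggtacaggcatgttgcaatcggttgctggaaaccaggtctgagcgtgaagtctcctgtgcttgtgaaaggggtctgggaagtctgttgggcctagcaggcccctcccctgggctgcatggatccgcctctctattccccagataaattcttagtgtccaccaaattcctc

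The Aldh1a2 window holds 2 matches and a GC content of 77.6%, that of Tbx18 holds 1 match at 54.0%, and that of Tcf21 holds none at 52.4%, against a median GC content of 52.4% over all windows. RefSeq windows were matched for 8 members, 10 windows in all. CANNTG was found in 7 of these 10 and in 66.2% of all 32851 windows of this length, and its CAGCTG form in 3 of 10, at Ptgds, Islr and Slc6a13, and in 13.0% of all. On both strands, the forkhead core GTAAACA was in 0 of 10 and in 3.17% of all windows, the T-box letters AGGTGTG in 1 of 10 (Ptgds) and in 5.10%, and the nuclear receptor letters AGGTCA in 1 of 10 (Slc6a13) and in 14.0%. CAGCTG is a form of CANNTG, so those counts overlap. These are letter matches and do not show binding.

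The solute carriers of the arachnoid barrier ranged over 3.49 to 4.44 log2 units between arrays. Slc47a1, a proton-coupled exporter of organic cations, had log2 values of 11.74, 8.42 and 9.12 in WT replicates 1 to 3 and 9.76, 7.30 and 9.15 in RAG-/- replicates 1 to 3. As deposited, its intensity was 3395 in WT replicate 1 and 154 in RAG-/- replicate 2, a 22.1-fold range. WT replicate 1 was far above all other arrays and RAG-/- replicate 2 was lowest, and the groups overlapped. The means were 9.76 ± 1.75 in WT and 8.74 ± 1.28 in RAG-/- (SD, n = 3), a difference of -1.02 (SE 0.91), smaller than the SD of either group.

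Slc6a13, a carrier of GABA and taurine, was at 10.80, 7.48 and 7.70 in WT and 9.23, 6.87 and 7.99 in RAG-/- (replicates 1 to 3, log2 scale). Both arrays of pair 1 lay above the other 4, with WT replicate 1 the highest. Its mean difference was -0.63 (SE 0.93). Slc22a6, the organic anion transporter that moves anionic drugs and metabolites, was at 8.85, 5.36 and 6.28 in WT and 7.64, 5.67 and 6.56 in RAG-/-, again with both arrays of pair 1 on top. Here WT replicate 2 was lowest, and the difference was -0.20 (SE 0.88). A weaker probe set of Slc22a6 also had WT replicate 1 as its highest array but differed by -0.90 (SE 0.58), with -1.01, -0.50 and -1.19 in pairs 1 to 3.

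Members that make secreted or signalling molecules differed in how far they ranged. Aldh1a2, the dehydrogenase that turns retinal into retinoic acid, was at 11.26, 8.18 and 9.68 in WT replicates 1 to 3 and 9.22, 6.06 and 9.56 in RAG-/- replicates 1 to 3. Its deposited intensity fell from 2423 in WT replicate 1 to 58.1 in RAG-/- replicate 2, and its log2 range of 5.20 exceeded that of every other member. The group means were 9.71 ± 1.54 and 8.28 ± 1.93 (SD, n = 3) and the difference was -1.43 (SE 1.03). The groups overlapped, since RAG-/- replicates 1 and 3 both lay above WT replicate 2.

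Ptgds, the prostaglandin D synthase that leptomeninges, choroid plexus epithelium and oligodendrocytes secrete into cerebrospinal fluid, lay at the 99.8 percentile at its brighter probe set. That probe set read 14.47, 14.38 and 14.32 in WT and 14.40, 13.78 and 14.36 in RAG-/-, so only RAG-/- replicate 2 was set apart, and the difference was -0.21 (SE 0.19). The other Ptgds probe set spanned 4.01 log2 units. It read 14.72 in WT and 14.21 in RAG-/- of pair 1, 13.80 and 12.38 of pair 2, and 10.70 and 11.44 of pair 3, so both arrays of pair 1 were highest and both of pair 3 lowest. Its SD over the 6 arrays was at the 99.4 percentile of tested probe sets, where that of the brighter probe set was at the 16.9 percentile. The probe sets of Ptgds therefore disagree on how much the gene varied. As deposited, the brighter one ran from 12215 to 23598 and the other from 1607 to 24130.

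Of the transcription factors, Foxc1 and Foxc2 are forkhead proteins of mesenchyme, and mouse embryos need Foxc1 to form the meninges. Foxc1 read 9.43, 7.87 and 8.52 in WT and 7.94, 7.45 and 8.30 in RAG-/-, with means of 8.61 ± 0.79 and 7.90 ± 0.42 (SD, n = 3), and it was lower in the RAG-/- array of every pair. The difference was -0.71 (SE 0.45). Its other probe set differed by -0.83 (SE 0.66) but was higher by 0.11 in pair 3. Foxc2 read 9.15, 7.41 and 6.97 in WT and 6.97, 5.56 and 8.05 in RAG-/-, a difference of -0.98 (SE 0.74), and was lower by 2.18 and 1.85 in pairs 1 and 2 but higher by 1.08 in pair 3.

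Tbx18, a T-box factor of arachnoid and mural cells, was at 9.67, 7.11 and 7.48 in WT and 8.01, 5.75 and 6.51 in RAG-/-. It was lower in the RAG-/- array by a like amount in each pair, at -1.67, -1.37 and -0.97, and the mean difference was -1.33 (SE 0.78). RAG-/- replicate 1 nonetheless exceeded WT replicates 2 and 3, so the groups overlapped. A dimmer Tbx18 probe set, at the 26.1 percentile and below the filter, gave -1.07, -1.34 and 0.20. Islr, an immunoglobulin-like membrane protein of mesenchymal stromal cells, was at 12.00, 10.83 and 10.69 in WT and 11.46, 9.23 and 10.67 in RAG-/-, with a difference of -0.72 (SE 0.59), and its pair 3 arrays differed by only -0.02.

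Tcf21, a basic helix-loop-helix factor of mesenchyme in visceral organs, departed from this order. Its values were 7.46, 8.71 and 7.94 in WT replicates 1 to 3 and 8.62, 7.27 and 7.10 in RAG-/- replicates 1 to 3. WT replicate 1, the brightest array for all 9 other members, was below 3 other arrays here, and WT replicate 2 was highest. By description the difference was -0.37 (SE 0.50) and the groups overlapped.

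**Figure D1:**
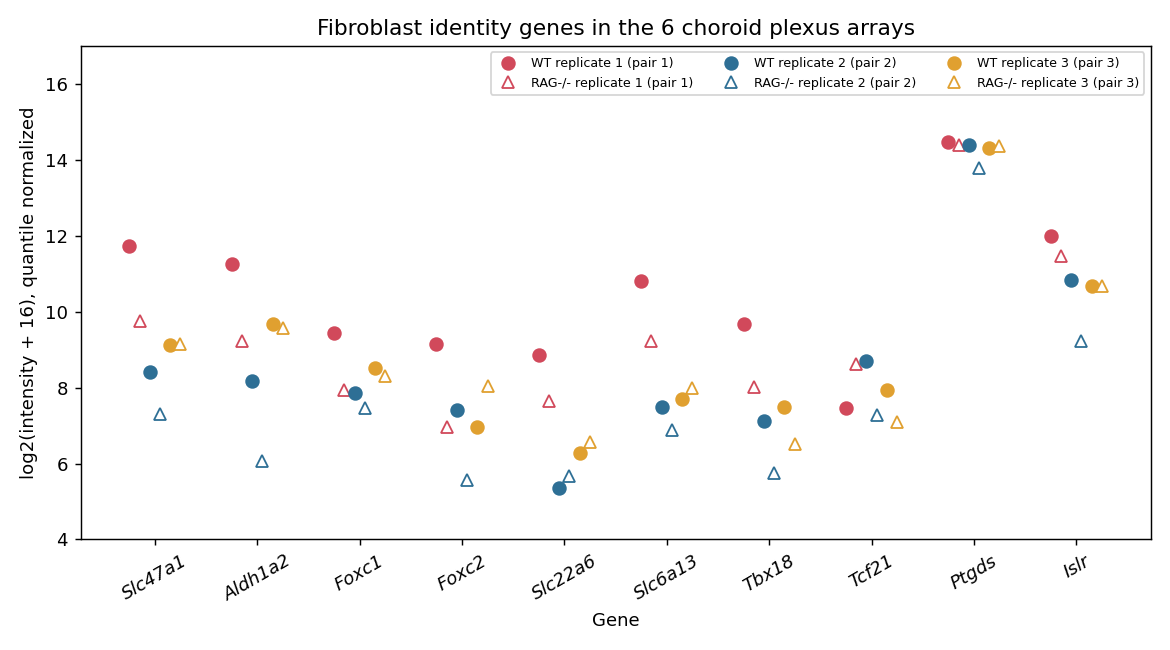
Levels of the 10 genes (x axis) on the scale log2(intensity + 16) after quantile normalization (y axis), with filled circles for WT and open triangles for RAG-/- by description and a colour for each pair. WT replicate 1 is the highest array for 9 genes, and Tcf21 runs in another order.

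By rank, the members ran from the 51.6 percentile (Slc22a6) to the 99.8 percentile (Ptgds) of all probe sets by mean log2 value, with Islr at 90.8, Slc47a1 at 78.9, Aldh1a2 at 76.6, Slc6a13 at 70.1, Foxc1 at 69.2, Tcf21 at 65.1, Tbx18 at 60.6 and Foxc2 at 59.8. Probe sets bind with different strength, so these ranks place each probe set on the array and do not order the genes. What set the members apart from a typical probe set was their spread: the SD over the 6 arrays exceeded the median of tested probe sets in 9 of 10 members and was above the 90 percentile in 7. Aldh1a2 was at the 99.7 percentile for SD and Slc47a1 at 99.1, with Foxc1 at 81.2 and Tcf21 at 81.6 among the calmer members.

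The spread had a common order. WT replicate 1 was the highest array for 9 of 10 members, compared with 10.1% of the 27022 tested probe sets. RAG-/- replicate 2 was the lowest for 8 of 10, compared with 29%, and both held in 8 of 10, compared with 4.11%. In 6 members both arrays of pair 1 ranked above the other 4. The share of all tested probe sets with that order was not computed, so this count is a description only. The mean over the 10 members was 10.48, 8.58 and 8.87 in WT replicates 1 to 3 and 9.32, 7.50 and 8.82 in RAG-/- replicates 1 to 3.

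Co-variation between members is given as a description, since the 6 arrays come in pairs and are not independent. Over the 45 pairings of members Pearson r had a median of 0.81 and Spearman rho a median of 0.71. Among the 36 pairings without Tcf21, a choice made after its values were seen, r was above 0 in all and ran from 0.53 (Slc22a6 with Ptgds) to 0.97. Tcf21 correlated with the others at between -0.24 (Foxc1) and 0.38 (Ptgds). WT replicate 1 and RAG-/- replicate 2 were farthest from the median of the members' mean, and over the other 4 arrays the median r of the 45 pairings was 0.14. Those 2 arrays were picked as the extremes of the members' own mean. A lower r without them was thus partly built in and cannot show what the common order rests on. Some pairings, picked out after their values were seen, stayed high over those 4 arrays: r was 0.99 between Slc47a1 and Slc22a6, 0.94 between Slc22a6 and Slc6a13, 0.90 for Slc6a13 with both Slc47a1 and Islr, 0.83 between Aldh1a2 and Foxc1, and 0.79 between Tbx18 and Islr. Others turned, down to -0.93 between Foxc2 and Tbx18. Over those 4 arrays Tcf21 ran from -0.71 with Foxc1 to 0.72 with Tbx18, with a median r of -0.06. How far Tcf21 stood apart from a given member thus depended on the 2 arrays.

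**Figure D2:**
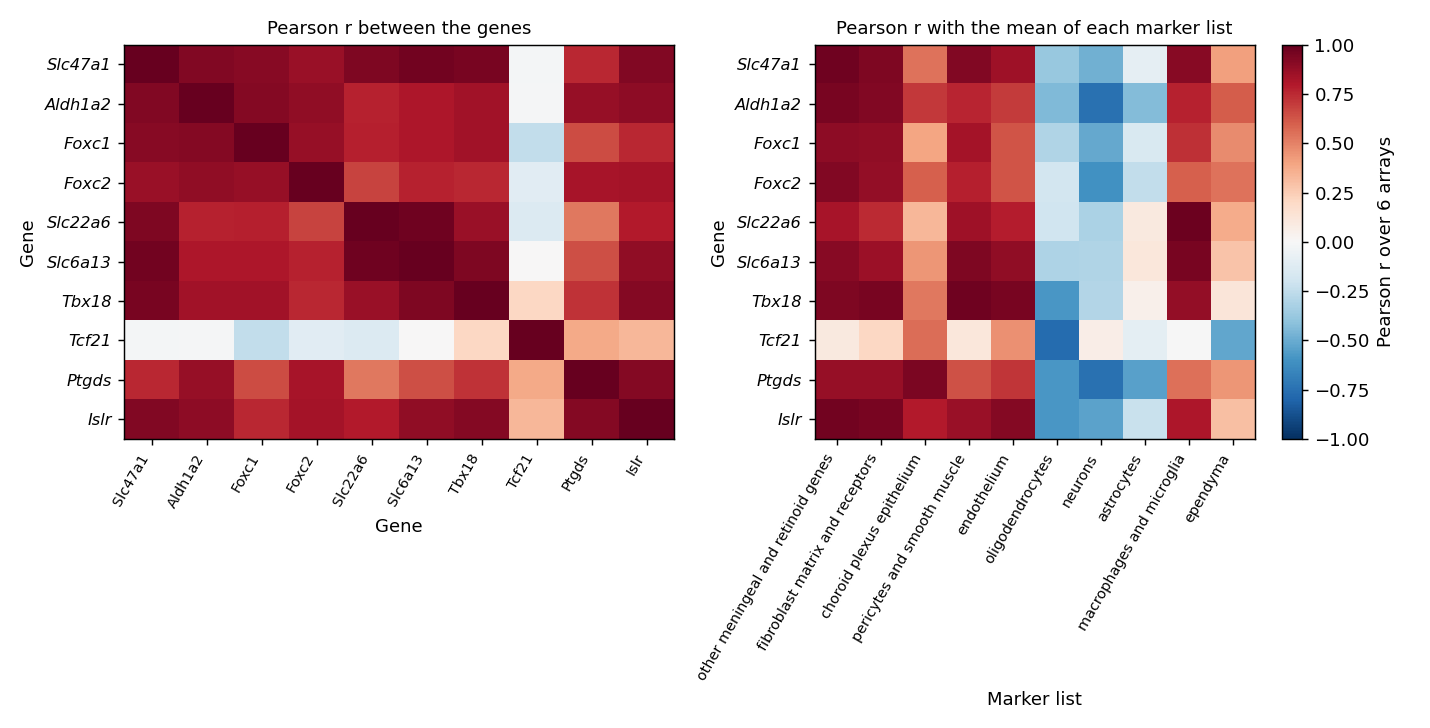
Pearson r over the 6 arrays between the genes (left, both axes list genes) and between each gene (y axis) and the mean of each marker list (right, x axis), with red above 0 and blue below 0. Tcf21 forms the pale row and column on the left, while the 36 pairings of the other 9 genes lie between 0.53 and 0.97.

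Against the means of other marker lists, the members' mean followed 24 other meningeal and retinoid genes at r = 0.99, 25 genes of fibroblast matrix and receptors at 0.96, pericytes and smooth muscle at 0.92, and macrophages and microglia and endothelium at 0.88 each. It was at 0.63 with choroid plexus epithelium, -0.46 with oligodendrocytes and -0.51 with neurons (n = 6 arrays, where the list means of an array share its RNA and normalization). Without the 2 outlying arrays the first of these was 0.95, the matrix list 0.28 and the macrophage list 0.99. As a check of the name given to these genes, members other than Tcf21 correlated with the matrix list at r between 0.75 (Slc22a6) and 0.95 (Islr). Over the 4 arrays without the outlying ones r was 0.86 for Tbx18, 0.40 for Islr, 0.15 for Slc6a13, 0.12 for Slc47a1, 0.06 for Slc22a6, -0.07 for Foxc1, -0.13 for Aldh1a2, -0.15 for Ptgds and -0.98 for Foxc2. Slc22a6 and Slc6a13 correlated more highly with the macrophage list (0.98 and 0.95) than with the matrix list (0.75 and 0.85). The pericyte list also gave a higher r than the matrix list for Slc22a6 (0.84), Slc6a13 (0.93) and Tbx18 (0.97 against 0.95). Ptgds, at its brighter probe set, had its highest r with the epithelium list, at 0.94. By rank this did not hold: its Spearman rho was 0.43 with epithelium and 0.94 with both pericytes and endothelium. Tcf21 was at 0.21 with the matrix list over the 6 arrays but at 0.74 over the 4. With oligodendrocytes it was at -0.77 over the 6 arrays and over the 4.

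Of the genes outside the members, those whose profile over the 6 arrays was most like the members' mean deviation were Rpl22, a ribosomal protein, Itm2a, Cyp27a1, Cybb, Ier2, Cnn2, Dock2 and Ecm1, with Pearson r from 0.987 to 0.995. Of the 13527 genes compared, 245 (1.81%) had r above 0.9. The profiles were alike in shape and not in size: Rpl22 spanned 0.42 log2 units, while Dock2, a regulator of leukocyte migration, spanned 2.73, from 7.51 in WT replicate 1 to 4.78 in RAG-/- replicate 2. Cybb, a subunit of the phagocyte oxidase, spanned 2.47.

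In RAG-/- against WT by description, all 10 members had a lower mean in RAG-/-, where 51.9% of tested probe sets did, and the median of their differences was -0.71, against -0.01 over all tested probe sets. None passed: limma called 0 of 10 members (adjusted p = 1 for each) and 0% of 27022 probe sets, and at an unadjusted p under 0.05 it gave 0 members and 192 probe sets. Exact permutation p-values of the members lay between 0.3 and 0.9, where 0.1 is the smallest that this design allows. In 0 members did the 3 RAG-/- arrays all lie below the 3 WT arrays, against 1.6% of probe sets. Between unpaired arrays the difference in the members was thus within their spread.

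Within pairs, 9 of 10 members were lower in the RAG-/- array of pair 1, 9 of 10 in pair 2 and 5 of 10 in pair 3. The exceptions in pairs 1 and 2 were Tcf21, higher by 1.16 in pair 1, and Slc22a6, higher by 0.32 in pair 2. The members' mean differed by -1.16, -1.08 and -0.04 in pairs 1, 2 and 3. Aldh1a2, Foxc1, Tbx18 and Islr were lower in all 3 pairs, 4 of 10 members against 11.5% of probe sets, although Islr differed by only -0.02 and Aldh1a2 by only -0.13 in pair 3. With the pair as a block limma again called 0 members and 0% of probe sets, with 3 members, Tbx18, Aldh1a2 and Slc47a1, and 636 probe sets at an unadjusted p under 0.05. The block lowered the SE from 0.78 to 0.27 for Tbx18, from 1.03 to 0.43 for Aldh1a2 and from 0.91 to 0.39 for Slc47a1. Tbx18 then had an unadjusted limma p of 0.002 and an adjusted p of 1, so it did not pass over all probe sets. The blocked p sets the difference against the scatter of the pair differences, not against the spread between pairs. With pair 1 read by title, the unadjusted blocked limma p of Tbx18 was 0.71. Single arrays moved the median of -0.71 in both directions: it was -0.24 when RAG-/- replicate 2 was left out, -0.30 when WT replicate 1 was, and -1.13 and -1.14 when RAG-/- replicate 1 or WT replicate 2 was.

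**Figure D3:**
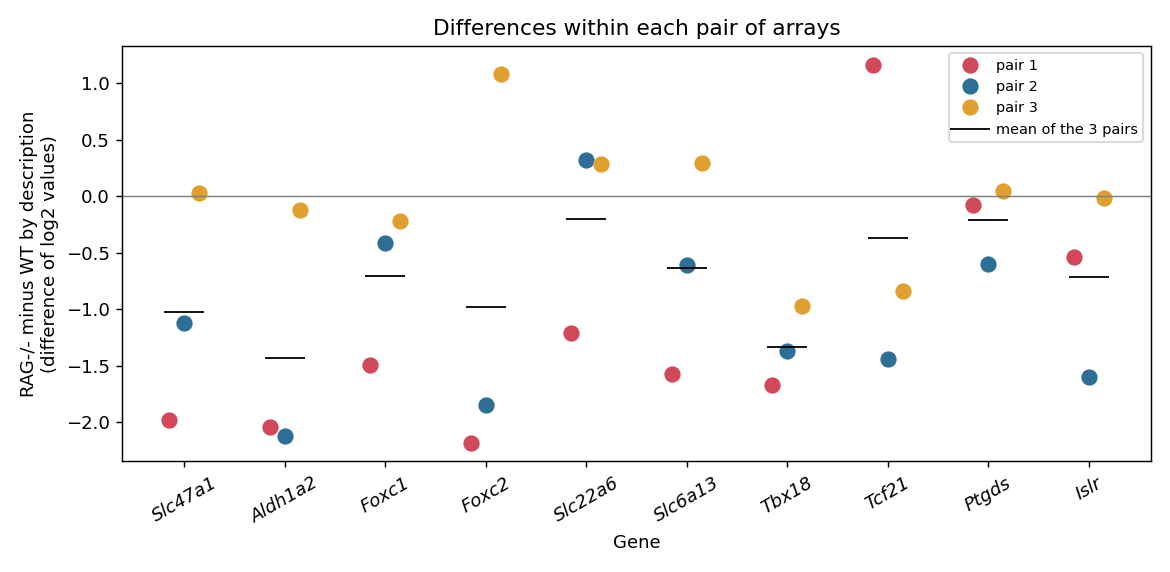
Differences of log2 values, RAG-/- minus WT by description (y axis), for the 10 genes (x axis), with a coloured point for each pair and a black bar for the mean of the 3 pairs. In pair 1, 9 genes are below 0, where the genotype by title would turn every sign, and 5 genes are below 0 in pair 3.

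By title, where pair 1 turns, the members split evenly, with 5 lower and 5 higher and a median difference of 0.11, where 53.8% of tested probe sets were lower. Slc22a6 was then higher by 0.60, Foxc2 by 0.47, Slc6a13 by 0.42, Slc47a1 by 0.30 and Foxc1 by 0.29, and Tbx18 (-0.22), Aldh1a2 (-0.07), Islr (-0.36), Ptgds (-0.16) and Tcf21 were lower. Limma called 0 members and 0% of probe sets without the block, and with it 0 members and 1 probe set, of Pttg1, which is 0.0037% of those tested. At an unadjusted p under 0.05 the fits gave 1 member, Tcf21, in each case, and 332 and 1118 probe sets.

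Tcf21 was the only member whose arrays parted by title, at 8.62, 8.71 and 7.94 in those titled B10 and 7.46, 7.27 and 7.10 in those titled RAG. No array titled RAG reached the lowest of the others, and Tcf21 was also the only member lower in all 3 pairs in that reading, at -1.16, -1.44 and -0.84. Of tested probe sets 2.66% were lower without overlap by title and 14.6% were lower in all 3 pairs. The difference was -1.15 (SE 0.32; exact permutation p = 0.1; limma adjusted p = 1 without and 0.926 with the block), so it did not pass over all probe sets. The dimmer Tcf21 probe set, at the 48.5 percentile, did not part by title, with a difference of 0.02 (SE 0.33). Slc22a6 was the only member higher in all 3 pairs by title, at 1.21, 0.32 and 0.28, which its weaker probe set did not repeat (1.01, -0.50 and -1.19).

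The other genes of the meninges and of retinoid handling were lower by description in 22 of 23 tested cases (median difference -0.55) and lower by title in 12 of 23 (median difference -0.01). Limma called 0 of the 23 in either reading. Cxcl12, a chemokine of meningeal fibroblasts and pericytes, had means of 11.06 ± 0.61 in WT and 10.06 ± 0.58 in RAG-/- (SD, n = 3) and pair differences of -0.94, -1.32 and -0.74, and its difference by title was -0.37. Slc6a20a, a proline transporter, differed by -0.60 (SE 0.63) by description and by -0.23 by title. Zic1, a zinc finger factor of the meninges, differed by -0.55 (SE 0.25) by description and by 0.01 by title, so its difference was lost in that reading. The sulfate carrier Slc13a4 differed by -0.22 (SE 0.27) by description and by -0.41 by title. Rdh10, which makes the retinal that Aldh1a2 uses, and Dhrs3, which turns retinal back to retinol, each differed by -0.07 by description. By title Rdh10 differed by -0.04 and Dhrs3 by -0.50, and the pair differences of Dhrs3 by description were 0.65, -0.83 and -0.02. Over the 6 arrays Rdh10 ranged over 1.38 and Dhrs3 over 1.57 log2 units, against 5.20 for Aldh1a2.

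Genes of fibroblast matrix and receptors were lower in 23 of 25 cases by description (median difference -0.65) and in 16 of 25 by title (median difference -0.18), and limma called 0. Of its 6 genes of highest mean, Col1a2, a chain of type I collagen, differed by -1.08 by description and -0.28 by title, and Ogn, a small proteoglycan, by -0.93 and -0.57. The growth factor Igf2 differed by -0.42 and -0.48, the collagen-processing enhancer Pcolce by -0.46 and -0.37, the actin-severing Gsn by -0.26 and -0.09, and the growth factor binding protein Igfbp2 by 0.05 and -0.38. The direction was shared by some other lists and not by all. By description 18 of 18 epithelium genes, 9 of 10 pericyte genes and 9 of 10 endothelial genes were lower too, and by title 17 of 18, 4 of 10 and 8 of 10. Of oligodendrocyte genes 0 of 10 were lower in either reading. By description 2 of 11 neuronal, 3 of 8 astrocyte, 6 of 12 macrophage and 4 of 7 ependymal genes were lower. By title these were 4 of 11, 2 of 8, 5 of 12 and 3 of 7. Of all tested probe sets 51.9% were lower by description and 53.8% by title. Set against the mean of the matrix list within each array, the members' mean stood at -1.12, -2.11 and -1.90 log2 units in WT replicates 1 to 3 and at -1.41, -2.12 and -1.65 in RAG-/- replicates 1 to 3. That relative level differed by -0.02 between the groups, where the SDs were 0.52 and 0.36 (n = 3), and by -0.29, -0.01 and 0.25 in the pairs. The matrix list gave the value nearest 0 by description but not by title. By description the difference was -0.20 relative to the other meningeal and retinoid genes, -0.29 to pericytes, -0.39 to endothelium, -0.55 to epithelium and -0.60 to macrophages. By title these were 0.01, -0.05, 0.24, 0.39 and -0.11, and 0.18 relative to the matrix list. Relative to oligodendrocytes, neurons, ependyma and astrocytes the difference was -1.76, -0.96, -0.90 and -0.82 by description. By title it was -1.26, -0.22, -0.21 and -0.38 relative to those lists. Relative to the matrix genes, pair 1 was the higher pair in both of its arrays.

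Markers of other cell types moved with the members in part, and their part in the result was not tested. The epithelium list mean lay between 13.10 and 13.24 in the WT arrays and at 13.35, 12.33 and 13.18 in RAG-/- replicates 1 to 3, so it was low in RAG-/- replicate 2 as the members were but was not high in WT replicate 1. The pericyte list mean was 9.05, 8.12 and 8.02 in WT and 8.25, 7.69 and 7.84 in RAG-/-, and the endothelial mean ran from 7.88 to 8.62 in WT and from 7.43 to 8.41 in RAG-/-. The macrophage mean was 9.51, 7.47 and 8.27 in WT and 9.08, 7.62 and 8.07 in RAG-/-, high in both arrays of pair 1. Oligodendrocyte genes were at 10.63, 10.33 and 9.91 in WT and 10.22, 11.83 and 11.80 in RAG-/-, highest in RAG-/- replicates 2 and 3. In RAG-/- replicate 2 neuronal genes were at 12.11 and astrocyte genes at 12.32. In the other arrays neuronal genes lay between 9.06 and 10.82 and astrocyte genes between 10.89 and 11.98. Ependymal genes lay between 9.55 and 10.49 in all 6 arrays. All 12 macrophage genes, 11 neuronal genes, 10 oligodendrocyte genes and 8 astrocyte genes measured passed the filter, as did 10 of 11 pericyte genes and 10 of 12 endothelial genes.

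**Figure D4:**
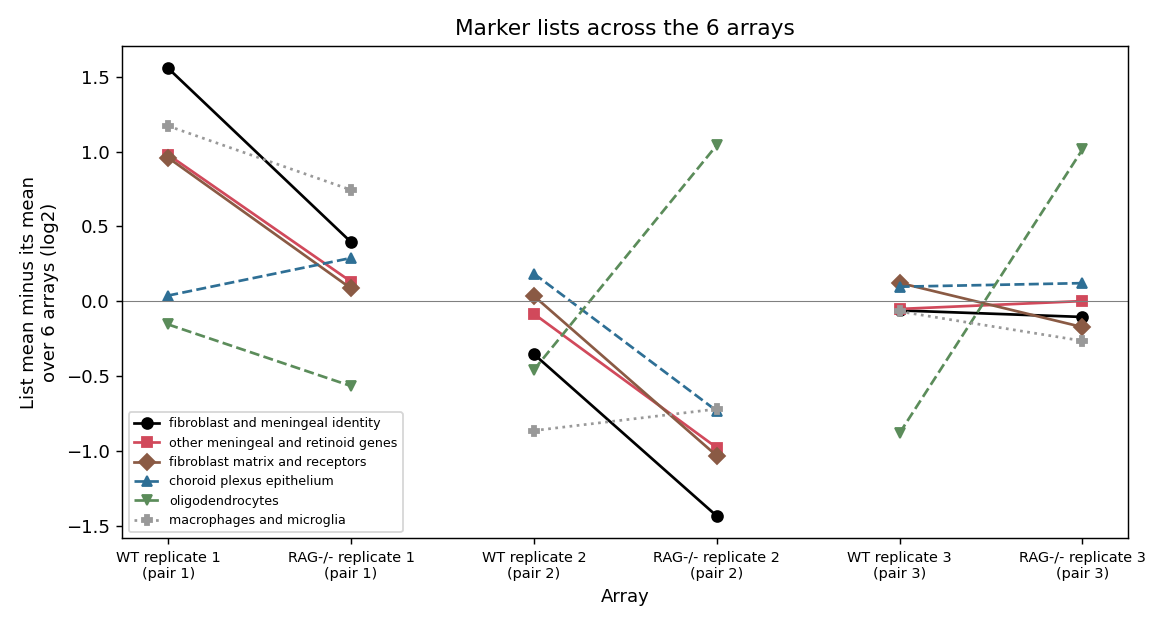
Mean log2 value of each marker list minus its own mean over the 6 arrays (y axis) by array (x axis), with lines joining the arrays of a pair. The fibroblast lists are highest in WT replicate 1 and lowest in RAG-/- replicate 2, while the oligodendrocyte list is highest in RAG-/- replicates 2 and 3.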

How the data were processed

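The deposited table gives a linear intensity for each probe set on each array. For these intensities the software and scaling were not given in the sources used here. Each array has a mean of 500.0 once 2% of probe sets at either end are left out, so, from the values, the authors' deposited intensities were scaled array by array. The 64 control probe sets were removed, values were taken as log2(intensity + 16), which understates changes of dim probe sets, and the arrays were quantile normalized. The 40% of probe sets with the lowest mean were not tested, which left 27022. Of the 45037 probe sets, 34945 had 1 symbol, and all 10 member symbols matched the RefSeq gene table by gene number. Groups follow the descriptions.

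RAG-/- minus WT was fitted over all probe sets in R 4.3.3 with limma 3.58.1, using lmFit and eBayes with its trend option. Its two-sided p-values were adjusted by Benjamini-Hochberg and called under 0.05. The fit was tested on simulated data. Within the pairs joined by a title code, the arrays' departures from their group means had correlations of 0.29, 0.39 and 0.58, each above the limit of 0.1, so a blocked fit was made too. Exact permutation tests ignore the pairs. The members and lists were chosen with earlier results of these data known. Named were all members, at most the 6 genes of highest mean in other lists, the 8 genes most like the members, and any gene past the threshold. Any other gene was added after its values were seen.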

Additional observations from a re-analysis of the deposited data

How the results depend on the processing

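Under 20 alternatives limma called 0 members, and the smallest adjusted p of any member was 0.926. The median difference of the members stayed below 0 in each alternative by description. It lay between -1.14 and -0.24 without single arrays, at -0.55, -0.60 and -1.08 without pairs 1, 2 and 3 (9 members without pair 1, where Slc22a6 fell below the filter), and between -0.82 and -0.65 with values as deposited, a common median, a pseudocount of 1 or 64, no filter, array weights, no intensity trend, the replicate block or the mean over probe sets. By title, with or without the replicate block, it was 0.11, and Slc47a1, Foxc1, Foxc2, Slc22a6 and Slc6a13 turned to 0.30, 0.29, 0.47, 0.60 and 0.42. Without single arrays Slc22a6 ran from -0.94 to 0.81 and turned without WT replicate 1 (0.81) and without RAG-/- replicate 2 (0.27), while Slc6a13 ran from -1.23 to 0.44 and turned without WT replicate 1 (0.44). Tcf21 turned with array weights (0.22) and without pair 2 (0.16). The cause was not tested.

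Over all probe sets the count called was 0, against 1 with the replicate block by title (Pttg1), 2 without pair 2 (both unnamed here) and between 0 and 4 without single arrays. The 4, without RAG-/- replicate 2, were Xist and 3 unnamed probe sets. Without RAG-/- replicate 2 or pair 2, every RAG-/- array left had low Xist and high Eif2s3y and no WT array did. In those settings genotype by description and sex cannot be told apart. The block changed no other call. With 3 arrays a group, precision is limited by their number.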
